A study of Rattus norvegicus with 6 samples.

Results

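The cytosolic and mitochondrial chaperones were followed as 43 named genes in the rat pituitary tumour line GH4C1, whose somatolactotroph cells make growth hormone and prolactin. The genes were chosen by name for their role in protein folding, with earlier results of these data known. Each was represented by the probe set that is annotated to that symbol alone and has the highest mean log2 signal over 6 arrays. Of the 43 genes, 40 had such a probe set, among 14217 genes so represented on the array. A filter on dim probe sets (mean signal of at least 11.2) left 37 of them in the test, among 10143 tested genes. The cells of 3 cultures had received a lentiviral vector for POU1F1(R271W) followed by an IRES-EGFP reporter, and those of 3 control cultures a vector with EGFP alone. POU1F1 is the transcription factor that drives the prolactin and growth hormone genes, and the series title calls R271W a dominant negative mutant of it. Both vectors used the PGK promoter, both groups were infected at a multiplicity of 5, and both were grown for 4 days afterwards, so every culture carries EGFP. The mutant was expressed on top of the line's own Pou1f1, the labels do not give the share of cells transduced, and 1 tumour line stands for the cell type.

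Chaperones bind unfolded proteins and release them in cycles driven by ATP. HSP70 proteins are loaded by J-domain proteins and reset by nucleotide exchange factors such as the BAG and HSP110 proteins, and HSP90 receives partly folded clients, among them steroid receptors and kinases, with the help of co-chaperones. The CCT ring folds actin and tubulin, which prefoldin hands to it, while HSP60 and its lid HSP10 fold proteins imported into the mitochondrial matrix. Many of these genes are induced by heat through the transcription factor HSF1, which binds repeats of the letters GAA and TTC known as heat shock elements. A hormone-secreting cell also keeps a separate set of chaperones in the endoplasmic reticulum.

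Values are MAS5 signals, 1 per probe set and array on a linear scale that has no unit. The median signal of an array was 26.99, 25.7 and 25.5 in the R271W group and 22.99, 22.8 and 22.4 in the control group. The spike-in controls of hybridisation read 0.23 higher on the log2 scale on the R271W arrays, and the ratio of 3' to 5' beta-actin signal was 1.86, 1.98 and 2.06 on the R271W arrays, against 1.81, 1.82 and 1.82 on the control arrays. The poly-A spikes, both GAPDH ratios and the ratio of 3' to middle beta-actin signal overlapped between the groups. Correlations of log2 signal across probe sets were 0.882 to 0.893 between arrays of 1 group and 0.878 to 0.889 between arrays of different groups. The cells carried their defining markers: Prl, Gh1 and Pou1f1 summed to signals of 10491 to 12372 on the R271W arrays and 12635 to 13702 on the control arrays. Gh1, the largest part of that sum, was not called in limma (log2 -0.03, adjusted p = 0.853). Prl and Pou1f1 were called lower (log2 -0.45, adjusted p = 0.00048, and log2 -0.33, adjusted p = 0.00486). Prl read 3006, 3171 and 3347 on the R271W arrays and 4147, 4522 and 4327 on the control arrays. Pou1f1 itself read 1898, 1873 and 1738 on the R271W arrays and 2281, 2399 and 2222 on the control arrays, and it is not known here if this probe set also reads the transcript of the vector. Of 14 markers of other pituitary and stromal cells with a probe set, 3 passed the filter (Dcn, Lhb and Fshb) and none was at 0. All 14 summed to 1288 to 1358 in R271W cells, against 2774 to 2975 in control cells. Most of that sum was Dcn, which read 1203, 1169.6 and 1244 in R271W cells, against 2674, 2854 and 2783 in control cells. The other fibroblast marker, Col1a1, lay below the filter, with means of 7.10 in R271W cells and 12.8 in control cells. The part of the spikes, the beta-actin ratio and Dcn in the results below was not tested. On an array of a whole culture, fewer cells that express a gene and less RNA per cell cannot be told apart.

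In R271W cells 20 of the 37 tested chaperone genes fell and 0 rose at an adjusted p under 0.05, and the groups did not overlap in any of the 20. The largest falls were those of Bag3, Fkbp4, Dnajb1, Dnajc2, Hspa4 and Stip1, at log2 fold changes of -0.54 to -0.77. The median log2 fold change of the 37 genes was -0.23, which is 0.852 times the control level, against 0.06 over all tested genes. The adjusted p comes from limma, fitted over all 18625 probe sets that passed the filter. Over all tested genes 8.98% were called lower and 9.87% higher, 911 and 1001 genes, and over all probe sets 7.22% were lower and 8.57% higher. That split depended on the scaling of the arrays, with 907 lower and 932 higher under quantile normalization, 1305 and 691 when arrays were centred on the 75th percentile, and 2071 and 441 when they were centred on the median, which moved the median of all genes to -0.14. The chaperone count was 16 lower and 1 higher, 23 and 0, and 28 and 0 under the same settings. Without the intensity trend in the variance, 3 chaperone genes were called lower, Bag3, Fkbp4 and Stip1, with 2.81% of all genes called lower.

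Most chaperone probe sets are bright, and bright genes as a class were lower more often. Among tested genes with a mean signal of at least 200, 19.7% were called lower, against 20 of 34 chaperone genes in that class. In the same class the groups did not overlap, with the R271W arrays lower, for 30.7% of all genes and for 23 of the 34. Among genes with a signal of at least 1000, 30.5% were called lower and 5.85% higher, against 14 and 0 of 20 chaperone genes. The median log2 fold change in that brightest class was -0.10 over all 632 genes and -0.26 over the 20 chaperone genes. Groups without overlap in which the R271W arrays were lower were seen for 24 of the 37 chaperone genes and for 16.6% of all tested genes. At a signal of at least 1000 they were seen for 17 of 20 chaperone genes and for 43.4% of all genes. The reverse, with every R271W array higher, was seen for 0 of the 37 and for 21.2% of all tested genes. In the brightest class it was seen for 0 of the 20 and for 71 of all 632 genes.

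**Figure D1:**
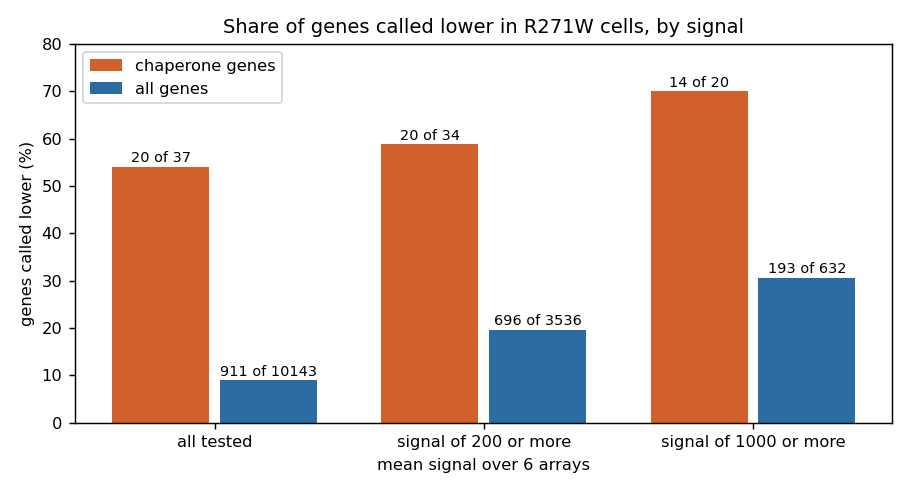
Share of genes called lower in R271W cells (%, vertical axis) for the chaperone genes (orange) and for all tested genes (blue), in 3 nested classes of mean signal over 6 arrays, with counts above the bars. The share of chaperone genes is above that of all genes in each class, and both grow with signal, to 14 of 20 and 193 of 632 in the brightest class.

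Taken array by array, the shift of the group was of similar size. The median over the 37 genes of the log2 signal, set against each gene's control mean, was -0.23, -0.31 and -0.20 on the R271W arrays, and -0.03, 0.02 and -0.01 on the control arrays. Over all tested genes the same medians were 0.07, 0.06 and 0.06 on the R271W arrays, and 0.01, 0.00 and 0.00 on the control arrays. Leaving out each array in turn gave 14 to 22 chaperone genes called lower and 0 called higher. Among the 37 genes, 10 had another probe set that was tested, 12 probe sets in all, of which 11 read below 0, 4 were called lower and 0 were called higher.

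**Figure D2:**
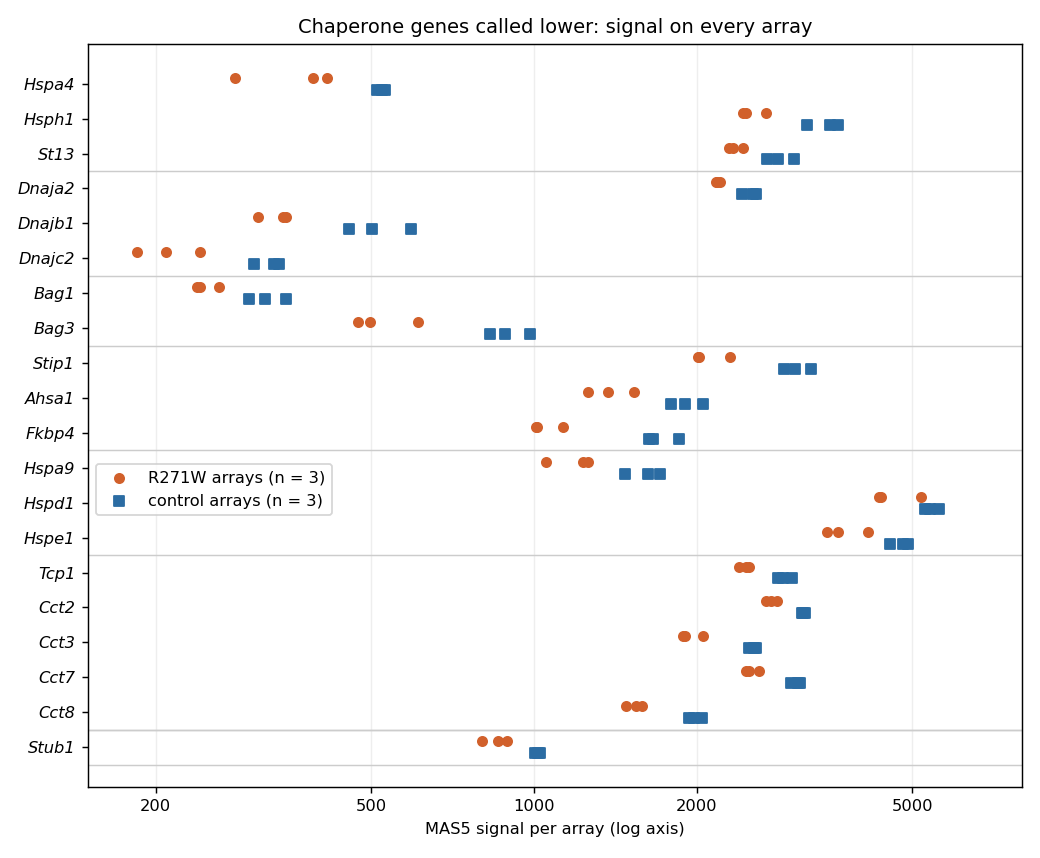
MAS5 signal (log axis) of the 20 chaperone genes called lower, on each of the 3 R271W arrays (orange circles, upper row of each gene) and the 3 control arrays (blue squares, lower row). In all 20 genes the R271W points lie left of the control points, with the narrowest gap in Hspd1.

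Promoter windows of these genes are shown because HSF1 is the shared regulator of many chaperone genes. RefSeq windows on GRCr8, running from 250 bases before to 50 bases after an annotated start, were matched for 37 of the 43 genes. They were searched for a heat shock element of 3 alternating units (GAA, TTC and GAA, or TTC, GAA and TTC, each 2 bases apart), and for its shorter forms GAANNTTC and TTCNNGAA. Each pair of spellings covers both strands, and the longer form contains the shorter ones. The longer form was in 7 of the 37 windows (18.9%) and in 0.798% of all 33469 windows, and a shorter form was in 18 of 37 (48.6%) and in 15.9% of all. Of the windows of genes called lower, 3 of 17 held the longer form (Hsph1, Hspd1 and Hspe1), against 2 of 16 among tested genes that did not pass (Chordc1 and Cct4). The other two were those of Hspa8 and Dnaja1, which were not tested. The 3 windows below belong to Bag3, the gene with the largest fall, and to Hsph1 and Hspe1, which fell and hold the longer form. Each is written 5′ to 3′ on the strand of the gene, with capitals for the longer element in Hsph1 and Hspe1 and for the shorter one in Bag3, and a match of letters is not a measured binding site.
Bag3, chr1:192533210-192533509, plus strand: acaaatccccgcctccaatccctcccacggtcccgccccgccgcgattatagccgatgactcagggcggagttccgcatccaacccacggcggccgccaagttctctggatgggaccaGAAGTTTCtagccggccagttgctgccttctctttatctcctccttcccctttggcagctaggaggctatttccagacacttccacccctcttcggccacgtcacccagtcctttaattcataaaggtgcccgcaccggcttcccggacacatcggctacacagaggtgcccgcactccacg
Hsph1, chr12:10427118-10427417, plus strand: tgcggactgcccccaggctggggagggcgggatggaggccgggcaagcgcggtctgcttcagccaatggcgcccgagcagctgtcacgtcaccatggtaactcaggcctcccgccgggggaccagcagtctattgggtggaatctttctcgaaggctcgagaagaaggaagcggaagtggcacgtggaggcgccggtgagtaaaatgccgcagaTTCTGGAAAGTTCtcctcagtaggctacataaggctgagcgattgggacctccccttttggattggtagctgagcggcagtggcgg
Hspe1, chr9:64084077-64084376, plus strand: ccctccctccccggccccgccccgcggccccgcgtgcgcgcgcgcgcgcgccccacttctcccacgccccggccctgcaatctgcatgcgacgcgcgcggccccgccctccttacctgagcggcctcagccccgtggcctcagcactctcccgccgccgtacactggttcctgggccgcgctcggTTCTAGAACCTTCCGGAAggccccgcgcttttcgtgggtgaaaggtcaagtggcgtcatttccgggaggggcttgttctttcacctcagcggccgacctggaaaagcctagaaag
The capitals in Hspe1 are 2 overlapping longer elements. Hspd1 lies on the opposite strand, its window (chr9:64083988-64084287) shares 211 bases with that of Hspe1, and the same run of letters accounts for its match.

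All 3 tested genes of the cytosolic HSP70 system fell. Hspa4, an HSP110-type exchange factor, read 416, 281 and 391 on the R271W arrays, against 525, 513 and 531 on the control arrays. Its R271W arrays spread more widely than its controls, yet the highest of them lay below the lowest control. The fold change was -0.55 on the log2 scale, with a 95% confidence interval of -0.82 to -0.28 and an adjusted p of 0.00874. Hsph1, the HSP110 protein HSP105, read 2438, 2469 and 2683 in R271W cells and 3200.1, 3641 and 3523 in control cells, without overlap (log2 -0.45, interval -0.60 to -0.30, adjusted p = 0.000776). A second Hsph1 probe set fell further, to a mean of 1298 in R271W cells against 2079 in control cells, by 0.68 on the log2 scale. Its promoter, printed above, holds 1 longer heat shock element. St13, the HSP70-interacting protein HIP, read 2432, 2296 and 2338 in R271W cells and 2829, 3022 and 2698 in control cells (log2 -0.27, adjusted p = 0.0128). The St13 call ended without control replicate 2 (adjusted p = 0.0775) and under quantile normalization (0.0796). The dimmer St13 probe set read -0.14 and did not pass. Hspa8, the constitutive HSP70, and Hspa1b, the heat-inducible one, had no probe set annotated to their symbol alone and were not analysed here.

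J-domain proteins, which start the ATP cycle of HSP70, were split: 3 of 5 tested genes fell. Dnajb1, the heat-inducible HSP40, read 309, 344 and 348 in R271W cells and 454, 502 and 592 in control cells, without overlap (log2 -0.62, interval -0.85 to -0.39, adjusted p = 0.00136). The dimmer probe set of Dnajb1 read -0.39 (adjusted p = 0.0668). Dnajc2, a J-domain protein bound to ribosomes, read 241, 209 and 185 in R271W cells, against 304, 338 and 331 in control cells (log2 -0.62, adjusted p = 0.00231). The fitted level of each of these genes was 0.650 times that of the controls. Dnaja2, a farnesylated HSP40, differed less, with 2213, 2184 and 2170.4 in R271W cells and 2422, 2540.2 and 2578 in control cells (log2 -0.20, adjusted p = 0.0453). That call ended without R271W replicate 1 or 2 or without control replicate 1, 2 or 3, with adjusted p values of 0.0729 to 0.156, and under quantile normalization (log2 -0.08, 0.415). Dnajb6, an HSP40 that holds back aggregates of polyglutamine proteins, read 1418, 1546 and 1965 in R271W cells and 1262, 1532 and 1332 in control cells, with overlap (log2 0.25, adjusted p = 0.149). It was the single chaperone gene called higher under any of the settings run, at 0.37 and an adjusted p of 0.0153 under quantile normalization. Dnajc7, a TPR-domain co-chaperone, had a log2 fold change of 0.02 (interval -0.18 to 0.22). Both Dnaja1 probe sets lay below the filter, with signals of 0.762 to 20.5 over the 6 arrays.

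Of the BAG factors, which release substrates from HSP70, Bag3 and Bag1 fell and Bag2 did not pass. Bag3, a heat-inducible factor of chaperone-assisted autophagy, read 474, 612 and 498 on the R271W arrays, against 983, 829.7 and 885 on the control arrays. The highest R271W value stood well below the lowest control. At -0.77 on the log2 scale (interval -0.99 to -0.55, adjusted p = 0.000230), its change was the largest among the 37 genes. Bag1 read 238, 262 and 241 in R271W cells and 349, 298 and 319 in control cells (log2 -0.38, adjusted p = 0.0205), and its call ended without R271W replicate 1 (0.0590), control replicate 1 (0.0925) or control replicate 3 (0.0585). Bag2, an inhibitor of the ubiquitin ligase CHIP, averaged 274 ± 39.4 in R271W cells and 278 ± 10.6 in control cells (SD, n = 3 each), with overlap (log2 -0.03, interval -0.28 to 0.22).

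In the HSP90 group 3 of 8 tested genes fell, all of them co-chaperones. Fkbp4, the immunophilin FKBP52 of steroid receptor complexes, read 1014, 1007 and 1133 in R271W cells and 1856, 1633 and 1660.3 in control cells (log2 -0.71, interval -0.87 to -0.54, adjusted p = 5.4e-05). Stip1, which links HSP70 to HSP90, read 2015, 2016 and 2302 in R271W cells and 3034, 3252 and 2899 in control cells (log2 -0.54, interval -0.70 to -0.38, adjusted p = 0.000302). Both genes passed under all 17 alternatives, as did Bag3. Ahsa1, which stimulates the ATPase of HSP90, read 1530.2, 1262 and 1374 in R271W cells, against 1797, 2052 and 1904 in control cells (log2 -0.47, adjusted p = 0.00176). Ptges3, the co-chaperone p23, lay just outside the threshold, with 3304, 3087 and 3483 in R271W cells and 3534, 4022 and 3939 in control cells (log2 -0.22, adjusted p = 0.0539). Its groups did not overlap, and it passed under 7 of the 17 alternatives. Hsp90ab1, the constitutive HSP90, read 5854, 4832 and 6061 in R271W cells and 5469, 6089 and 5357 in control cells, with overlap (log2 -0.02, interval -0.20 to 0.16). Its other, slightly dimmer probe set was called lower (mean 4327 in R271W cells, 4993 in control cells, log2 -0.21, adjusted p = 0.0359), so the probe sets of this gene disagree. The kinase co-chaperone Cdc37 (-0.10), the CHORD-domain gene Chordc1 (-0.10) and the immunophilin gene Fkbp5 (-0.15) had log2 fold changes that did not pass, with adjusted p values of 0.460, 0.460 and 0.474. All 8 genes read below 0, but Cdc37 read 0.01 under quantile normalization, and Hsp90ab1 ranged between -0.22 and 0.08 over the alternatives. Hsp90aa1, the inducible HSP90, had no probe set annotated to it alone.

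**Figure D3:**
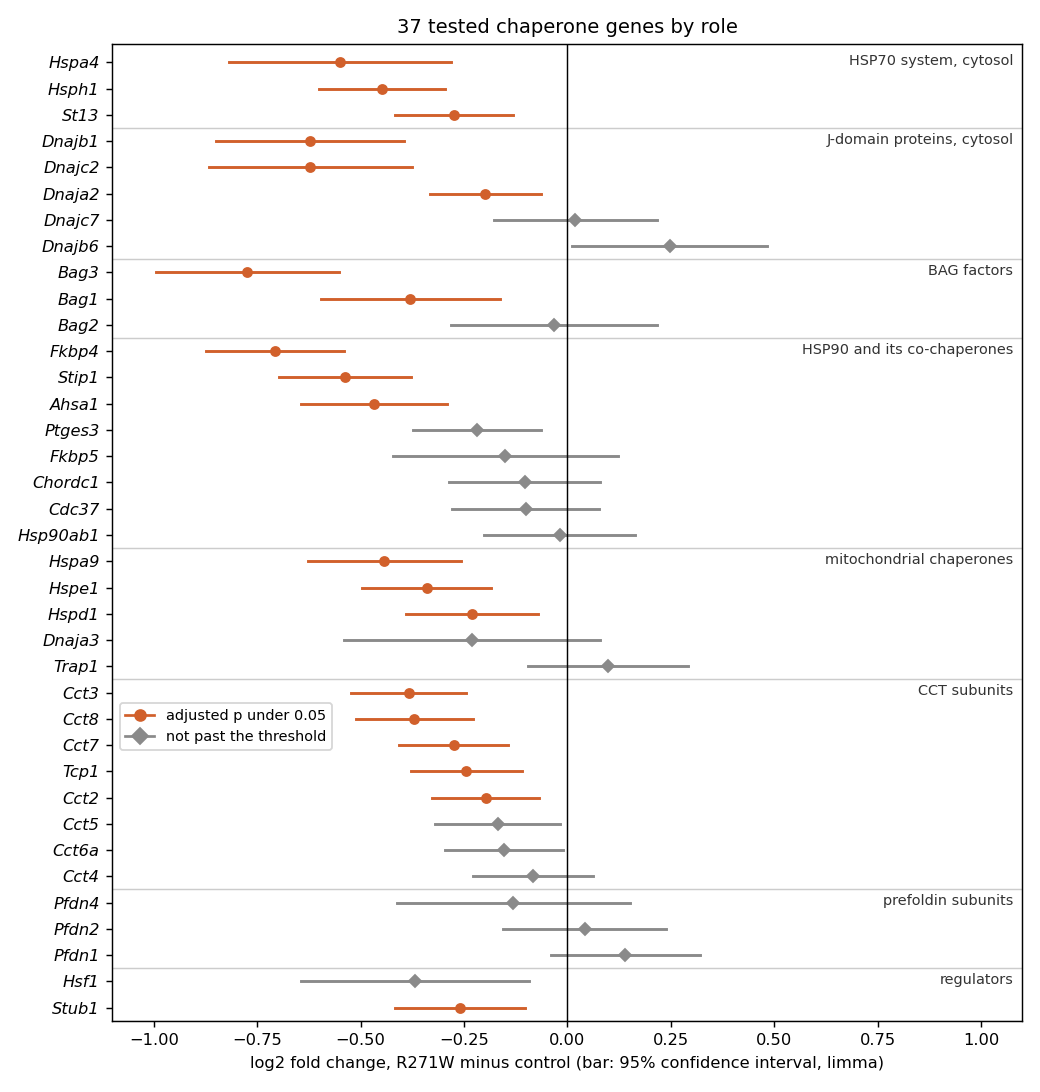
Log2 fold change, R271W minus control, of the 37 tested chaperone genes by role, with 95% confidence intervals from limma. Orange circles are the 20 genes with an adjusted p under 0.05, all left of 0, and grey diamonds are the 17 others, 5 of which lie right of 0.

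In the mitochondrion 3 of 5 genes fell. Hspa9, the matrix HSP70 mortalin, read 1231, 1052 and 1261 in R271W cells and 1627, 1713 and 1472 in control cells (log2 -0.44, interval -0.63 to -0.26, adjusted p = 0.00327). A second bright Hspa9 probe set also fell, by 0.38, while 2 dim ones read -0.13 and 0.12 without passing, and the mean over all its probe sets did not pass (-0.21, adjusted p = 0.173). Hspe1, the HSP10 lid, read 3653, 3485 and 4151 in R271W cells and 4914, 4802 and 4545 in control cells (log2 -0.34, interval -0.50 to -0.18, adjusted p = 0.00605). Hspd1, the HSP60 of the same folding chamber, read 4343, 4389 and 5198 in R271W cells and 5408, 5613 and 5279 in control cells (log2 -0.23, adjusted p = 0.0493). These are the neighbours whose promoter windows share the elements printed above, and on both the R271W replicate 3 array was the closest to the controls. The Hspd1 call, just inside the threshold, ended without R271W replicate 1 or 2 or control replicate 1, 2 or 3 (adjusted p = 0.0930 to 0.167) and when no filter was used (0.112). Dnaja3, the mitochondrial HSP40, overlapped between the groups (193, 189 and 138 in R271W cells and 221, 178 and 207 in control cells, log2 -0.23, adjusted p = 0.317). Trap1, the mitochondrial HSP90, read 369, 356 and 339.8 in R271W cells and 345, 332 and 317 in control cells, with a difference of 0.10 on the log2 scale (interval -0.10 to 0.29).

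The 8 subunits of the CCT ring leaned to one side: all 8 read below 0, between -0.08 and -0.38, 7 had groups without overlap, and 5 fell. All 8 had mean signals of at least 1000, a class in which 69.1% of all tested genes read below 0, against 43.9% over every signal. In that class 43.4% of all genes had groups without overlap and the R271W arrays lower, and 30.5% were called lower. Under quantile normalization 1 of the 8 subunits, Cct4, read above 0, at 0.04. Cct3, the gamma subunit, read 1890.2, 1903 and 2057 in R271W cells and 2573, 2549 and 2504 in control cells (log2 -0.38, interval -0.52 to -0.24, adjusted p = 0.00128). Cct8, the theta subunit, read 1584, 1545 and 1483 in R271W cells and 1933, 1977 and 2049.6 in control cells (log2 -0.37, interval -0.51 to -0.23, adjusted p = 0.00185). A dimmer Cct8 probe set was called lower as well, at -0.43. Cct7, the eta subunit, read 2609.8, 2470.3 and 2501 in R271W cells and 2989, 3101 and 3084 in control cells (log2 -0.28, adjusted p = 0.00791). The groups did not overlap in any of these 3 subunits, and their calls held whichever array was left out. Tcp1, the alpha subunit, read 2499, 2391 and 2462 in R271W cells, against 2826, 2883 and 3001 in control cells (log2 -0.24, adjusted p = 0.0163). Its call ended without R271W replicate 2 (0.0527), control replicate 2 (0.0570) or control replicate 3 (0.0804). Cct2, the beta subunit, read 2819.9, 2686 and 2745 in R271W cells, against 3136, 3149 and 3171 in control cells (log2 -0.20, adjusted p = 0.0401). It did not pass without R271W replicate 1 or 2 or control replicate 1, 2 or 3 (adjusted p = 0.0583 to 0.122). Under quantile normalization Tcp1 and Cct2 did not pass either (0.0895 and 0.188). The remaining subunits did not pass: Cct5, with 2577, 2739 and 2989.8 in R271W cells and 3169, 3175 and 2978 in control cells, had a log2 fold change of -0.17 (adjusted p = 0.124), Cct6a of -0.15 (0.138) and Cct4 of -0.08 (0.454). The promoter window of Cct4 holds a longer heat shock element, and those of Cct5 and Cct6a hold a shorter form alone. The windows of the 5 subunits that fell hold neither form.

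Prefoldin, which delivers actin and tubulin to CCT, had 0 of 3 genes called and groups that overlapped in all of them. Pfdn1 read 532, 549 and 542 in R271W cells and 533, 472 and 470.3 in control cells (log2 0.14, interval -0.04 to 0.32, adjusted p = 0.295). Pfdn4 read 773, 599 and 959.8 in R271W cells and 783, 872 and 854 in control cells (log2 -0.13, interval -0.41 to 0.15, adjusted p = 0.556). Pfdn2 had a log2 fold change of 0.04 (interval -0.15 to 0.24) and a dimmer probe set at -0.45 that did not pass (adjusted p = 0.283). The lower ends of these intervals lay at -0.04 for Pfdn1, -0.15 for Pfdn2 and -0.41 for Pfdn4. The Pfdn4 interval thus includes changes as large as that of any CCT subunit. The Pfdn2 interval includes the smaller changes of Cct6a (-0.15) and Cct4 (-0.08). Whether prefoldin and CCT genes differ in response was not tested.

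Of the regulators, Stub1 fell. It encodes CHIP, the ubiquitin ligase that marks chaperone clients for degradation, and read 858, 801 and 893 in R271W cells and 1003, 1020.0 and 1028 in control cells (log2 -0.26, interval -0.42 to -0.10, adjusted p = 0.0277). The call ended without R271W replicate 1 or 2 or control replicate 1, 2 or 3 (adjusted p = 0.0544 to 0.107) and under quantile normalization (0.127). Hsf1, the heat shock transcription factor, read 172, 146 and 180.3 in R271W cells and 190.4, 241 and 213 in control cells, without overlap, but did not pass (log2 -0.37, interval -0.64 to -0.09, adjusted p = 0.0682). It passed under 5 of the 17 alternatives, among them quantile normalization. The small heat shock proteins gave no comparison: the Hspb1 probe set and both Hspb8 probe sets lay below the filter, with signals of 0.760 to 2.97 for Hspb1 and 0.383 to 12.3 for Hspb8.

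Chaperone genes outside the 43 were read for comparison. Among 37 tested genes of other cytosolic chaperones and co-chaperones 6 fell and 5 rose, with a median log2 fold change of -0.02. Over all tested genes 8.98% were called lower and 9.87% higher, and at a signal of at least 200 19.7% and 11.2%. Dnaja4, an HSP40 related to Dnaja2, read 451, 435 and 404 in R271W cells and 659, 654 and 659.5 in control cells (log2 -0.61, adjusted p = 0.000218). Ppid, the cyclophilin of the HSP90 complex, and Nudc, an HSP90 co-chaperone of dynein function, fell by 0.50 and 0.53 on the log2 scale. Hspb6, the small heat shock protein HSP20, went the other way, with 281, 279 and 249 in R271W cells and 97.1, 75.1 and 75.9 in control cells (log2 1.71, interval 1.42 to 2.01, adjusted p = 4.25e-06). The 4 others that rose are named after their values were seen: Dnajc6, the auxilin of clathrin uncoating, by 0.54, Dnajc5, the cysteine-string protein of secretory vesicles, by 0.36, Hsbp1, which binds HSF1, by 0.37, and Sugt1, an HSP90 co-chaperone of the kinetochore, by 0.54. The arrays of Sugt1 overlapped between the groups, and its call ended without R271W replicate 2 or 3 or control replicate 3 (adjusted p = 0.0983 to 0.157). The Hsbp1 call ended without control replicate 2 (0.0882) or 3 (0.0794). The other tested probe sets read -0.01 for Dnajc6 and 0.20 and 0.09 for Dnajc5 without passing, and the mean over the probe sets ended both calls (0.26, adjusted p = 0.184, for Dnajc6 and 0.22, adjusted p = 0.157, for Dnajc5). When arrays were centred on the median, none of these 4 passed in limma (adjusted p = 0.0706 to 0.265).

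Among 12 other genes of prefoldin, its partners and tubulin folding, 2 fell and 1 rose, beside 8.98% lower and 9.87% higher over all tested genes. The prefoldin subunit gene Pfdn6 read 661, 661 and 624 in R271W cells and 883, 779 and 819 in control cells (log2 -0.35, adjusted p = 0.00825). Of the tubulin cofactors Tbcb fell by 0.34 and Tbcc rose by 0.55, and Pdcl, a phosducin-like gene, read 0.44 without passing (adjusted p = 0.0626). Both tubulin cofactor calls ended without R271W replicate 2, control replicate 1 or control replicate 2, with adjusted p values of 0.110 to 0.135 for Tbcb and 0.0566 to 0.0903 for Tbcc. Among 19 other mitochondrial chaperones and proteases 2 fell and 1 rose, beside the same shares over all tested genes. Lonp1, the matrix protease that degrades misfolded proteins, read 385, 359 and 365 in R271W cells and 712, 675 and 711 in control cells (log2 -0.92, interval -1.09 to -0.75, adjusted p = 9.75e-06), a larger change than that of any of the 37 genes. Bcs1l, a chaperone of respiratory complex assembly, fell by 0.66, and Hscb, the J-domain protein of iron-sulfur cluster transfer, rose by 0.46. The Hscb call ended without R271W replicate 1 or 2 or control replicate 1 or 3 (adjusted p = 0.0651 to 0.130), and under quantile normalization and both centrings (0.0758 to 0.217). Grpel1, the exchange factor of Hspa9, read -0.26 (adjusted p = 0.0917), and passed without R271W replicate 3 (0.0490).

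The endoplasmic reticulum relatives of these families are the closest comparison, and 7 of 10 tested genes fell with a median log2 fold change of -0.44. Over all tested genes 8.98% were called lower, and 19.7% at a signal of at least 200. Dnajc3, a co-chaperone that inhibits kinases of the translation factor eIF2alpha, read 222, 242 and 229.7 in R271W cells and 549, 579 and 545 in control cells (log2 -1.27, interval -1.46 to -1.08, adjusted p = 1.35e-06), the largest fall in these lists. Dnajb11, a J-domain partner of Hspa5, fell by 0.70, and Hyou1, an HSP110-type chaperone, by 0.76, though the Hyou1 call ended under the mean over its probe sets (adjusted p = 0.0776). These 3 genes are named after their values were seen. Hspa5, the HSP70 of that compartment, read 3251, 3592 and 3657 in R271W cells and 4564, 4231 and 3924 in control cells (log2 -0.28, adjusted p = 0.0201), and Hsp90b1, its HSP90, had a log2 fold change of -0.41 (adjusted p = 0.000948). The Hspa5 call ended without R271W replicate 1 (0.0835), control replicate 1 (0.109) or control replicate 2 (0.0661). Whether cytosolic and reticular chaperones differ in their shift was not tested.

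**Figure D4:**
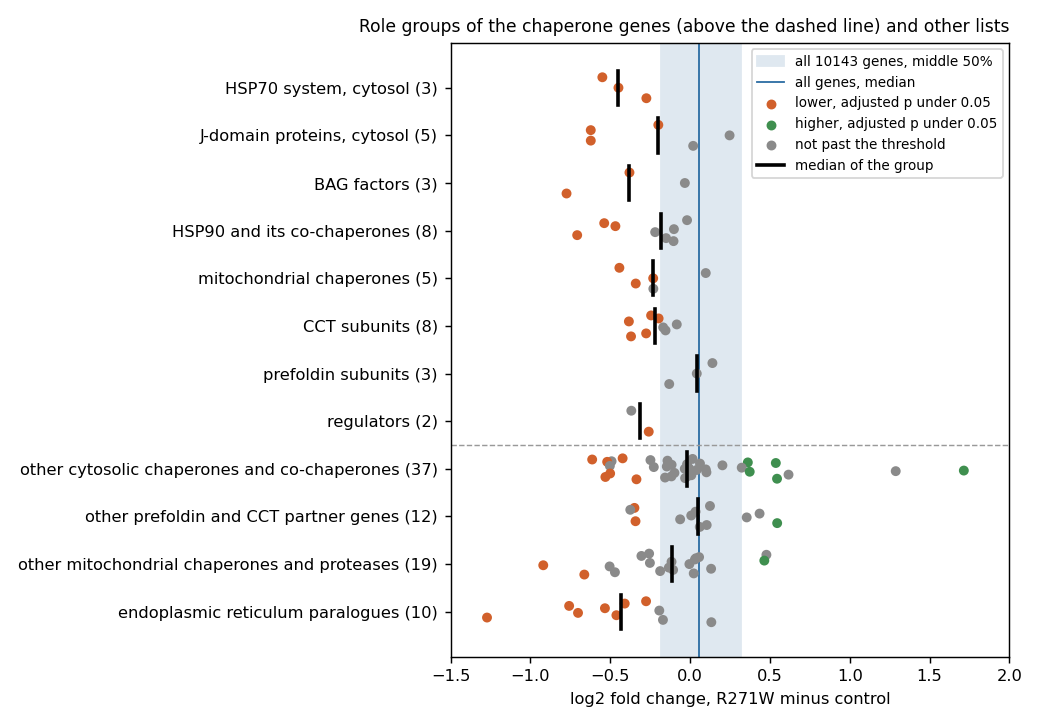
Log2 fold change, R271W minus control, of each tested gene (points) by role group of the chaperone genes and, below the dashed line, by other pathway list, with the number tested in brackets. Black bars are group medians, and the shaded band and blue line are the middle 50% and the median of all 10143 tested genes. The medians of the HSP70, J-domain, BAG, HSP90, mitochondrial, CCT and regulator groups lie between -0.18 and -0.45, and that of prefoldin at 0.04.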

How the data were processed

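Biotinylated cRNA from total RNA of each of the 6 cultures was hybridised to its own Affymetrix rat array, per the labels' protocols. The authors deposited intensity values from MAS5 (named in the submitters' processing notes, with the version and settings not given in the sources used here). Tested on the values, the mean of an array was 100 once 2% had been trimmed at each end, a scaling that ties its signals to bright probe sets. Dim probe sets scatter more: within a group, the median SD of log2 signals was 0.109 at or above a signal of 200 and 0.285 below it.

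Groups came from the sample labels. Symbols came from the platform annotation: of 31042 non-control probe sets 20826 had 1 symbol, 436 several and 9780 none here, and they were checked by Entrez ID against a RefSeq gene table of GRCr8. The test on log2 signals was two-sided and came from limma 3.58.1 under R 4.3.3 (eBayes with an intensity trend, no covariate), with Benjamini-Hochberg adjustment over the 18625 probe sets whose mean log2 signal reached the 40th percentile. All 37 tested chaperone genes lay above 138 on every array, well over the filter. Figures were drawn with matplotlib 3.10.9.

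The chaperone genes, the other lists and the tests were chosen with earlier results of these data known. By the naming rule every array is given for chaperone genes that passed, or, where a role group had none, for its 2 genes of smallest p. Arrays of others that did not pass were added after their values were seen. The other lists show up to 4 genes of smallest p, except the endoplasmic reticulum list, for which the rule named Hspa5 and Hsp90b1. The Hsph1 and Hspe1 promoters were chosen after their values were seen. On simulated data with 200 of 18625 probe sets changed, the test recovered 13 of 100 changes of 0.5 and 38 of 100 changes of 1 on the log2 scale, with 2 false calls among 53. The changed probe sets were drawn from all tested ones, of which 13700 lay below a signal of 200. In the data themselves 2940 probe sets were called. These rates therefore do not give the recovery for the chaperone genes, most of which are bright. Alternatives were 3 other scalings, 2 other filters, an offset of 3.72, array weights, robust eBayes, eBayes without the trend, a replicate block, the mean over a gene's probe sets, and leaving out each array.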

Additional observations from a re-analysis of the deposited data

How the results depend on the processing

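The 20 chaperone genes called lower read below 0 in all 340 values that 17 alternatives gave for them. Other filters, other eBayes settings and the replicate block leave the log2 fold change as it is, and both centrings moved it down. Groups without overlap keep their sign under array weights, an offset or a left-out array. Only quantile normalization and the mean over a gene's probe sets could thus have changed a sign. The calls of 3 of the 20 genes (Bag3, Fkbp4 and Stip1) held under every alternative. A further 9 lost their call under 1 alternative alone, eBayes without the intensity trend, which gave 3 chaperone genes called lower and 1065 probe sets called, against 20 and 2940. Leaving out each array in turn gave 14 to 22 chaperone genes called lower, 0 called higher, medians of -0.27 to -0.22 and 2046 to 2680 probe sets called. Their median log2 fold change was -0.16 under quantile normalization, where 1 gene was called higher, -0.43 when arrays were centred on the median and -0.31 when they were centred on the 75th percentile. Set against the median of all genes it was -0.17 under quantile normalization and -0.29 under both centrings and the deposited scaling. Centring moves every gene of an array by the same amount, so the value of -0.29 is shared by construction and is no added support. Why quantile normalization gave a smaller difference was not tested. Same-numbered arrays did not deviate together (correlations of -0.02 to 0.01 over probe sets). Most of these probe sets are dim and scatter widely, so the correlations cannot decide if the numbers pair the cultures. With a replicate block 15 chaperone genes were called lower and 0 higher. With 3 arrays per group, dim genes such as Hspb1, Hspb8 and Dnaja1, which lay below the filter, gave no comparison. The count of probe sets has no value for the mean over the probe sets of a gene.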

Other observations

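Probe sets of 1 gene could differ in size. Cacybp, which encodes the calcyclin-binding protein, had a brighter probe set at a log2 fold change of -0.03 (adjusted p = 0.820) and a dimmer one at -0.59 (adjusted p = 0.00241), with means of 1176 in R271W cells and 1772 in control cells. In Hsp90ab1 the brighter probe set likewise read closer to 0 than the dimmer one, while in Hspa9 the 2 bright probe sets fell and the 2 dim ones did not pass.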
